A study of Mus musculus with 8 samples.

Results

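Transcripts of the insulin-like growth factors (IGFs), of their scavenging receptor and of their binding proteins (IGFBPs) were measured in differentiated 3T3-L1 cells, a mouse line of preadipocytes that can be differentiated into fat-storing adipocytes. The members were taken by gene symbol. Of 9 symbols (Igf1, Igf2, Igf2r, Igfbp2, Igfbp3, Igfbp4, Igfbp5, Igfbp6 and Igfbp7), 6 had a row among the 18088 genes of the count table. Igfbp2, Igfbp3 and Igfbp6 had none and were not analysed here. All 6 measured members passed the filter on low counts. The study compared adipocytes transfected with siRNA targeting ERK3 (siERK3, 4 libraries) with adipocytes transfected with a non-targeting control siRNA (siNTC, 4 libraries). ERK3 is an atypical MAP kinase encoded by Mapk6. All 8 libraries came from cells labelled wildtype, transfected in suspension at 1.25 nM siRNA per square centimeter and used 48 h later. The libraries held 1 Erk3 siRNA condition, so loss of ERK3 and other effects of that siRNA cannot be told apart. Neither the labels nor the methods say whether the replicates of a group were separate differentiations or transfections, and p-values therefore measure only the spread between these samples.

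IGF1 and IGF2 are small secreted hormones that signal mainly through the IGF1 receptor, a tyrosine kinase close to the insulin receptor. IGF2 is also bound by IGF2R, the cation-independent mannose 6-phosphate receptor, which carries IGF2 to lysosomes and sorts newly made lysosomal enzymes. IGFBPs bind IGFs outside the cell and either hold them away from the receptor or deliver them, and proteases that cut IGFBPs set IGFs free. Preadipocytes respond strongly to IGF1, which together with insulin drives their differentiation.

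To show the regulatory sequence of members that ended up on different sides of the comparison, the 250 bases before a RefSeq start are given for Igf2 (called lower in siERK3 adipocytes), Igfbp7 (called higher) and Igf2r (not called). They were read 5′ to 3′ from RefSeq on GRCm38.p6, the assembly known as mm10, and none of these windows holds an annotated exon. Capitals mark, on either strand, the letters of a GC box, which reads GGGCGG, of a CCAAT box, named for its letters, or of an E-box.
Igf2 (chr7:142657497-142657746, minus strand): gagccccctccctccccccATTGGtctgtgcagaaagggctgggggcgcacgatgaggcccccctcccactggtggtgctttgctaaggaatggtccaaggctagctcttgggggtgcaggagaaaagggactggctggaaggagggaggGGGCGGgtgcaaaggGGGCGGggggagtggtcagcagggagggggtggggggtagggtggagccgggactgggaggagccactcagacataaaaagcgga
Igfbp7 (chr5:77408046-77408295, minus strand): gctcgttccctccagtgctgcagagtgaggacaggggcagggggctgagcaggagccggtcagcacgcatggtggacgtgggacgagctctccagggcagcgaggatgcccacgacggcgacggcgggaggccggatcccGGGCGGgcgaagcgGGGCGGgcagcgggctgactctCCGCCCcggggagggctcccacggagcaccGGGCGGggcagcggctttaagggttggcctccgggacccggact
Igf2r (chr17:12769707-12769956, minus strand): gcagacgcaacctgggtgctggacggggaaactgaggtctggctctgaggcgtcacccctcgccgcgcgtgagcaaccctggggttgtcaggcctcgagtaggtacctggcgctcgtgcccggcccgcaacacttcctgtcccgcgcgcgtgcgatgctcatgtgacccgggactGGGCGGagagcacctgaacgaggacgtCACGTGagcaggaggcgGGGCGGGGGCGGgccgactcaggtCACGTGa
The Igf2 window holds 2 GC boxes and 1 CCAAT box, the Igfbp7 window 4 GC boxes, and the Igf2r window 3 GC boxes and 2 E-boxes, here the form that reads CACGTG. Among 32817 promoter windows of the same length, 32.7% hold a GC box, 33.8% a CCAAT box and 6.02% an E-box. Igf2 has 4 RefSeq starts and only the one nearest its 3′ end is shown, although the gene counts do not tell which start was used. Of the other Igf2 windows, the one at chr7:142658805-142659054 holds 1 GC box and the remaining ones hold none. A CCAAT box is absent from all of these other Igf2 windows. All 6 measured members have promoter windows in RefSeq, 9 in all. None of the 9 holds GTAAACA, a core of forkhead sites present in 3.16% of all windows, or TTCNNNGAA, a STAT-type site present in 7.01%, again on either strand. The only Igf1 window (chr10:87860861-87861110) lies inside the gene, and all its 250 bases are annotated exon of Igf1. Sequence before the start of the Igf1 gene model, at 87858265, was therefore not searched. The Igf2 window at chr7:142658805-142659054 is likewise all exon of Igf2. A TATA box (TATAAA, read on the gene's strand) stands before Igfbp4 alone, against 7.60% of all windows. These are matches of letters, and binding of factors was not measured.

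Total counts lay between 9854522 and 9943572 per library. Levels are given as CPM, that is counts-per-million values after TMM scaling, and differences as log2 fold changes of siERK3 over siNTC from edgeR's quasi-likelihood test. A gene was called at a Benjamini-Hochberg adjusted p under 0.05 over all 17972 genes tested. The silencing itself was plain in the counts of Mapk6, which numbered 5344 to 5697 per siNTC library and 642 to 774 per siERK3 library, a log2 fold change of -3.06 (standard error 0.06). Differences were common across the transcriptome. Of all genes tested, 48.7% were called (24.9% higher and 23.8% lower in siERK3), and siNTC and siERK3 values were fully apart in 43.2%. The higher share of the called genes was 51.1%, but 39.7% with upper-quartile factors and 65.1% with library sizes only. All 10 adipocyte markers checked, adiponectin (Adipoq) and Fabp4 among them, were present, and all 10 were called lower in siERK3. With library sizes only 9 were called lower, as without siNTC replicate 1 or 4 or siERK3 replicate 1, 3 or 4. Their summed level was 30039 to 32304 CPM in siNTC and 17271 to 18376 CPM in siERK3 libraries. Of 9 measured preadipocyte and fibroblast markers 8 were lower (7 with library sizes only) and 1, Ly6a, was higher (summed 3164 to 3551 CPM and 2987 to 3107 CPM), while Cd34 had no row. Ly6a rose from a mean of 3.47 to 307 CPM and is part of these sums, which therefore understate the fall of the other 8. Of 8 macrophage and leukocyte markers only Cd68, Csf1r and Cd14 had a row (summed 9.89 to 14.5 CPM and 20.4 to 25.0 CPM), and of 8 endothelial markers only Pecam1 (0.516 to 1.26 CPM and 1.17 to 1.58 CPM). The part of these markers in the results below was not tested, and in bulk RNA fewer cells of a type and less RNA per cell cannot be told apart.

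Among the IGF transcripts, Igf2 was lower and Igf1 and Igfbp7 were slightly higher in siERK3 than in siNTC adipocytes, while Igf2r, Igfbp4 and Igfbp5 were not called. Thus 3 of 6 members were called, 2 higher and 1 lower, next to 48.7% of all genes. The groups did not overlap for 1 of 6 members, Igf2, next to 43.2% of all genes. The median log2 fold change of the 6 members was -0.06, and that of all genes tested was 0.00095. The share of members called was thus near that of all genes, and the results below concern how the members differed from each other.

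**Figure D1:**
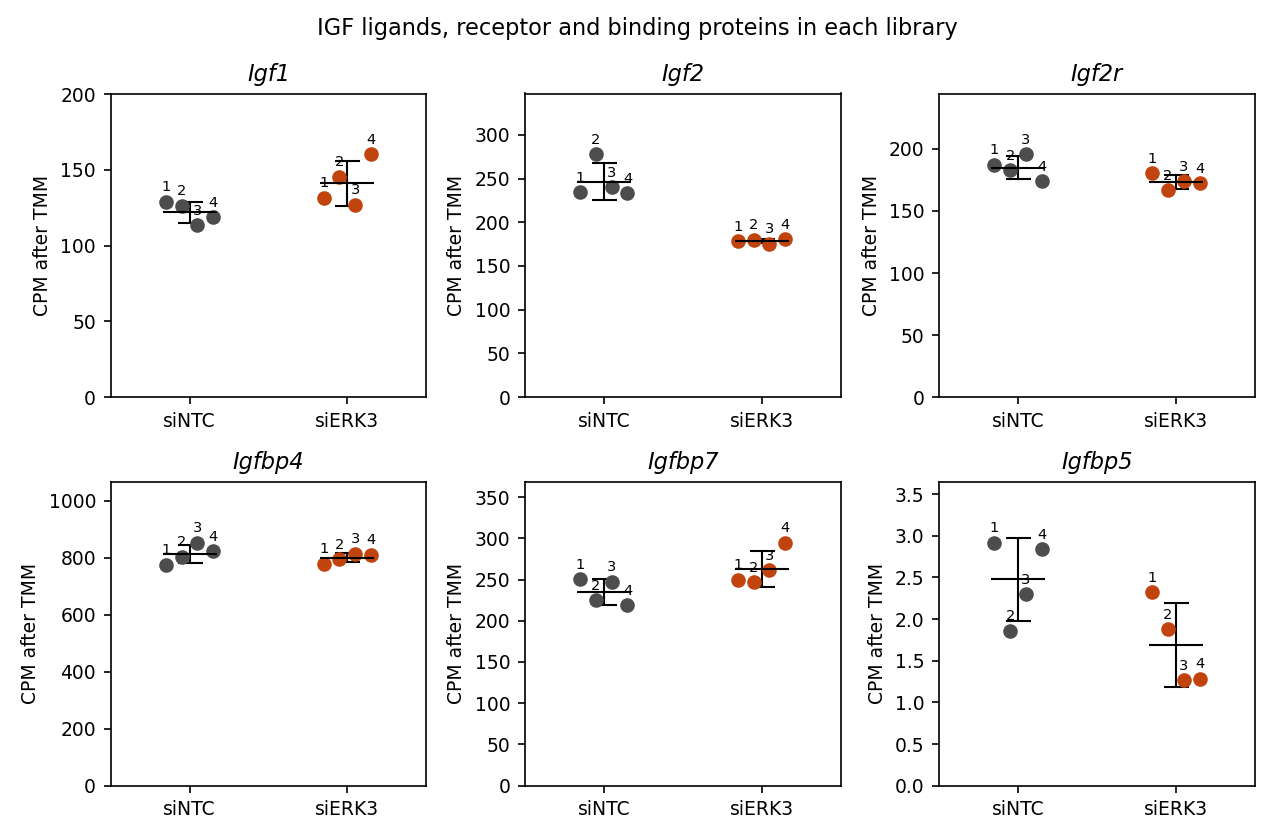
CPM after TMM (vertical axes, each starting at 0) of the 6 measured members in 4 siNTC and 4 siERK3 libraries, with points numbered by replicate, long lines at the group mean and bars of 1 SD. The siERK3 points of Igf2 lie between 175.7 and 180.4 CPM, all below the lowest siNTC point at 233.1 CPM, whereas the groups overlap in the other 5 panels.

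Igf2 encodes the fetal growth factor IGF2 and is expressed from the paternal allele in most mouse tissues. On mm10, the gene occupies the minus strand of chromosome 7 from 142650766 to 142666816 (ENSMUSG00000048583). Its level was 234.7, 277.8, 240.2 and 233.1 CPM in siNTC replicates 1 to 4 and 178.2, 179.9, 175.7 and 180.4 CPM in siERK3 replicates 1 to 4. Every siERK3 library thus lay below every siNTC library, and siNTC replicate 2 stood above the other 3 controls. The group means were 246 ± 21.1 and 179 ± 2.12 CPM (SD, n = 4 each). Igf2 thus fell, with a log2 fold change of -0.47 ± 0.06 (standard error, edgeR adjusted p = 3.38e-07), or 0.724 times the control with a 95% interval of 0.668 to 0.786. An exact two-sided permutation test of the CPM values gave p = 0.0286, the smallest that 4 libraries against 4 allow. Leaving out siNTC replicate 2 gave -0.40 (edgeR adjusted p = 3.34e-07). The siERK3 libraries varied little, with a coefficient of variation of 1.19%, below the 2.34% that counting error alone gives at their mean count. Igf2 ranked 12.7% from the lowest fold change of all genes tested, and 25.0% of genes changed more in one direction or the other.

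Exons of Igf2 are shared with other genes. A longer gene model on the same strand, Gm49394 (ENSMUSG00000115302), runs from 142650769 to 142669942 and covers 62.8% of the exonic bases of Igf2. Its counts exceeded those of Igf2 by only 6 to 20 per library, so reads of the shared exons were evidently counted for both models, and its log2 fold change of -0.47 is the same measurement. On the other strand Igf2os shares 98 exonic bases with Igf2. With 2.29 ± 0.38 and 1.71 ± 0.45 CPM in the siNTC and siERK3 groups (SD, n = 4 each) it was too low to contribute much, and it was not called (log2 fold change -0.42, edgeR adjusted p = 0.15, and -0.25 without siERK3 replicate 2, adjusted p = 0.399). 

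Igf1, the other ligand, moved the opposite way and by less. The gene lies on the plus strand of chromosome 10 from 87858265 to 87937042 (ENSMUSG00000020053). Its level was 128.9, 126.4, 113.7 and 118.7 CPM in siNTC replicates 1 to 4 and 131.5, 145.6, 127.0 and 160.3 CPM in siERK3 replicates 1 to 4. Only siERK3 replicate 3 fell within the siNTC range, and siERK3 replicate 4 was the highest. The means were 122 ± 7.04 and 141 ± 15.1 CPM (SD, n = 4 each), and Igf1 rose 1.16-fold (95% interval 1.05 to 1.27, log2 fold change 0.21 ± 0.07 standard error, edgeR adjusted p = 0.0109). The exact permutation test of the CPM values gave p = 0.0571. The call rested in part on siERK3 replicate 4, without which the log2 fold change was 0.15 (edgeR adjusted p = 0.0672), and it was also lost with upper-quartile factors (0.14, adjusted p = 0.0791). A larger change was seen in 55.8% of all genes tested.

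An antisense transcript at the start of Igf1, Igf1os (ENSMUSG00000058934, chromosome 10 from 87826377 to 87863381, minus strand), overlaps the span of Igf1 but none of its exons. It rose from 16.2 ± 1.87 to 22.7 ± 1.51 CPM (SD, n = 4 each), that is 0.49 ± 0.09 (standard error) on the log2 scale (edgeR adjusted p = 8.56e-05). Its siERK3 libraries, at 21.5 to 24.8 CPM, all lay above its siNTC libraries, at 13.5 to 17.8 CPM. The library kit does not mark the strand.

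The binding proteins held most of the IGF-related reads. Igfbp4, which encodes a mainly inhibitory IGF-binding protein, was the most abundant member and ranked 88 from the top of all genes tested in siNTC adipocytes. It lies on the plus strand of chromosome 11 from 99041244 to 99054392 (ENSMUSG00000017493). Its level was 775.4, 803.6, 852.2 and 821.5 CPM in siNTC replicates 1 to 4 and 778.8, 794.8, 813.0 and 809.7 CPM in siERK3 replicates 1 to 4. All 4 siERK3 values fell inside the siNTC range. The log2 fold change was -0.03 with a 95% interval of -0.13 to 0.08 (edgeR adjusted p = 0.706), which as a ratio to the control spans 0.915 to 1.06. With library sizes only the value turned to 0.06, also not called. Igfbp4 had the smallest standard error of the 6 members, 0.05 on the log2 scale, from 7445 to 8353 counts per library and with coefficients of variation of 3.96% in siNTC and 1.96% in siERK3.

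Igfbp7 encodes a secreted protein that binds IGFs weakly and insulin more strongly and is deposited in the matrix. It lies on the minus strand of chromosome 5 from 77349240 to 77408041 (ENSMUSG00000036256). Its level was 250.2, 225.0, 247.3 and 218.9 CPM in siNTC replicates 1 to 4 and 249.7, 247.1, 261.3 and 294.6 CPM in siERK3 replicates 1 to 4. The groups overlapped, with siERK3 replicates 1 and 2 inside the siNTC range and replicate 4 highest, as for Igf1. Igfbp7 rose 1.12-fold (95% interval 1.02 to 1.22, log2 fold change 0.16 ± 0.06 standard error, edgeR adjusted p = 0.0324), while the exact permutation test gave p = 0.143. The call was lost without siERK3 replicate 4 (log2 fold change 0.11, edgeR adjusted p = 0.15), without siERK3 replicate 3 (0.17, adjusted p = 0.0531), without siNTC replicate 2 (0.14, adjusted p = 0.0742), without siNTC replicate 4 (0.13, adjusted p = 0.121) and under upper-quartile scaling (0.09, adjusted p = 0.226). The 3′ end of Igfbp7 overlaps Polr2b on the other strand by 85 bases, 7.03% of the exonic length of Igfbp7. Polr2b itself stood at 86.3 ± 1.20 and 85.7 ± 3.99 CPM (SD, n = 4 each).

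Igfbp5 encodes a binding protein that adheres to extracellular matrix and was near the lower end of what the libraries measured. It lies on the minus strand of chromosome 1 from 72857932 to 72874884 (ENSMUSG00000026185). It had 28, 18, 22 and 27 counts in siNTC replicates 1 to 4 and 24, 19, 13 and 13 counts in siERK3 replicates 1 to 4. That is 2.48 ± 0.50 and 1.69 ± 0.51 CPM (SD, n = 4 each), with overlapping groups. The log2 fold change of -0.55 was the lowest of the members but also the least certain (95% interval -1.05 to -0.05, edgeR adjusted p = 0.0639). Coefficients of variation of 20% and 30.1% stood beside 20.5% and 24.1% from counting error alone. The gene passed the threshold without siNTC replicate 2 (-0.67, edgeR adjusted p = 0.0326), without siERK3 replicate 1 (-0.74, adjusted p = 0.0239) and under upper-quartile scaling (-0.62, adjusted p = 0.0364). At this depth the data neither place Igfbp5 with the lower genes nor show that it was level.

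Igf2r, whose product removes IGF2, lies on the minus strand of chromosome 17 from 12682406 to 12769664 (ENSMUSG00000023830). Its level was 187.4, 182.9, 195.7 and 173.9 CPM in siNTC replicates 1 to 4 and 180.6, 166.5, 174.0 and 172.3 CPM in siERK3 replicates 1 to 4. The groups overlapped, and the log2 fold change was -0.09 with a 95% interval of -0.20 to 0.01 (edgeR adjusted p = 0.145). It was -0.16 (adjusted p = 0.0124) with upper-quartile factors and -0.0067 (adjusted p = 0.93) with library sizes only, so the scaling decided on which side of the threshold it fell. Airn, the antisense RNA that starts within Igf2r and silences its paternal copy in embryonic tissues, overlaps the span of Igf2r but shares no exonic base with it. Its group means were 39.2 ± 3.09 and 34.7 ± 5.84 CPM (SD, n = 4 each) and was not called (log2 fold change -0.17, edgeR adjusted p = 0.126). Single libraries decided this value, which was -0.26 without siERK3 replicate 1 (adjusted p = 0.0239) and -0.07 without siERK3 replicate 4 (adjusted p = 0.508). With upper-quartile factors it was -0.24 (adjusted p = 0.0314).

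**Figure D2:**
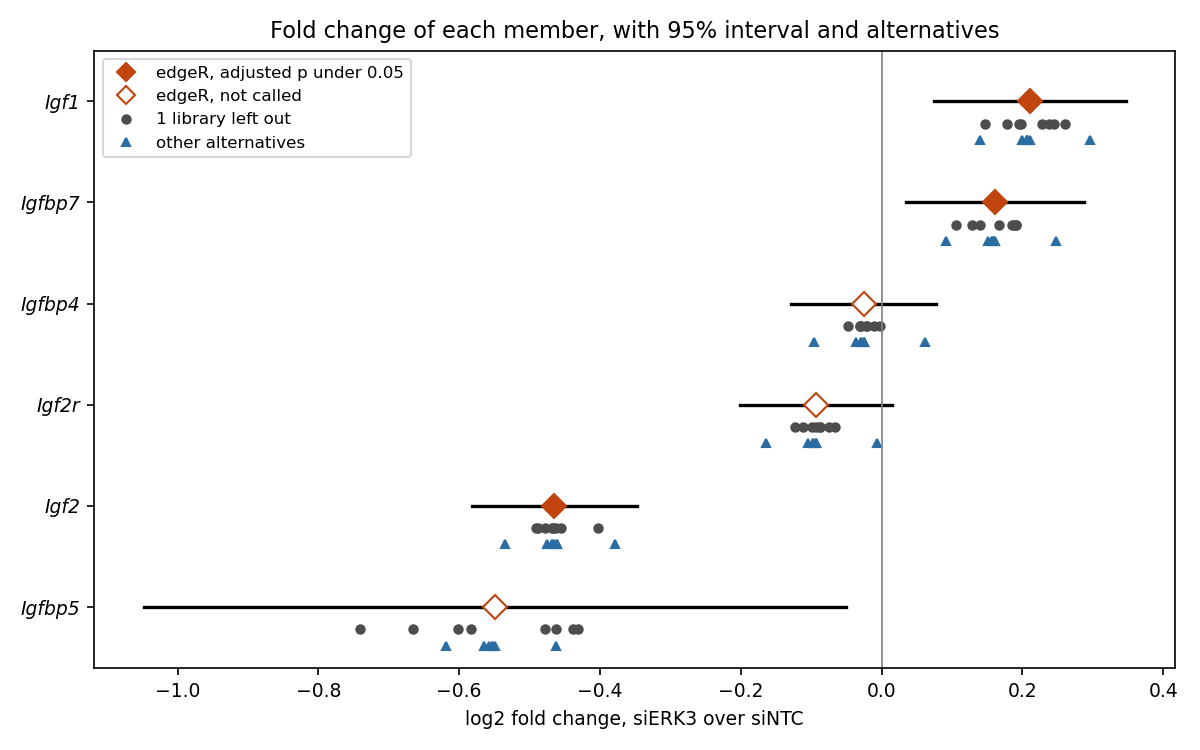
Log2 fold change of siERK3 over siNTC (horizontal axis) for the 6 members, with diamonds for the edgeR value (filled where called), black lines for its 95% interval, grey points for fits without 1 library and blue triangles for the other alternatives. The values of Igf2 lie between -0.54 and -0.38, every value of Igf1 and Igfbp7 lies right of 0, and the values of Igfbp4 fall on both sides of 0.

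Per length, the members spanned a wide range. Divided by the exonic length of each gene in GENCODE M21 (from 1.21 kb for Igfbp7 to 9.9 kb for Igf1), the levels in siNTC adipocytes were 195 ± 13.0 CPM per kb for Igfbp7, 184 ± 7.29 for Igfbp4, 43.1 ± 3.69 for Igf2, 19.9 ± 0.98 for Igf2r, 12.3 ± 0.71 for Igf1 and 0.413 ± 0.083 for Igfbp5 (SD, n = 4 each). Igfbp7 and Igfbp4 did not differ beyond their spread in siNTC adipocytes, where they spanned 181.1 to 206.9 and 175.6 to 193.0 CPM per kb. Each of the other neighbours in this order was separated in all 4 libraries. The order was the same in siERK3 adipocytes, with Igfbp7 at 218 ± 18.1 and Igfbp4 at 181 ± 3.55 CPM per kb, now without overlap (204.4 to 243.7 and 176.4 to 184.1). These lengths join all annotated exons, so a gene with long alternative ends such as Igf1 may be set too low. The same may hold for Igf2, whose counts nearly equalled those of Gm49394, a model covering 62.8% of its exonic bases.

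The balance between the ligands shifted, since Igf2 was lower and Igf1 higher. There were 0.455 to 0.549 counts of Igf1 for each count of Igf2 in siNTC adipocytes and 0.723 to 0.889 in siERK3 adipocytes, without overlap. Per length, Igf1 and Igf2 together came to 52.7 to 61.3 CPM per kb in siNTC and 43.5 to 47.7 CPM per kb in siERK3. The summed level of Igfbp4, Igfbp5 and Igfbp7 was 368 to 398 CPM per kb in siNTC and 383 to 427 CPM per kb in siERK3. By these lengths, binding protein transcripts exceeded ligand transcripts 6.01 to 7.45 times in siNTC and 8.34 to 9.20 times in siERK3 libraries. Both ligands may be set too low by their joined exons, which would make the excess too large in both groups. Igfbp7 made up 49.3 to 54.0% of the binding protein sum in siNTC and 53.1 to 57.0% in siERK3. The 6 members together took 0.151 to 0.159% of all counts in siNTC and 0.156 to 0.165% in siERK3, so the family as a whole kept a similar share. These ratios combine members already described and carry no test, and amounts of protein were not measured.

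**Figure D3:**
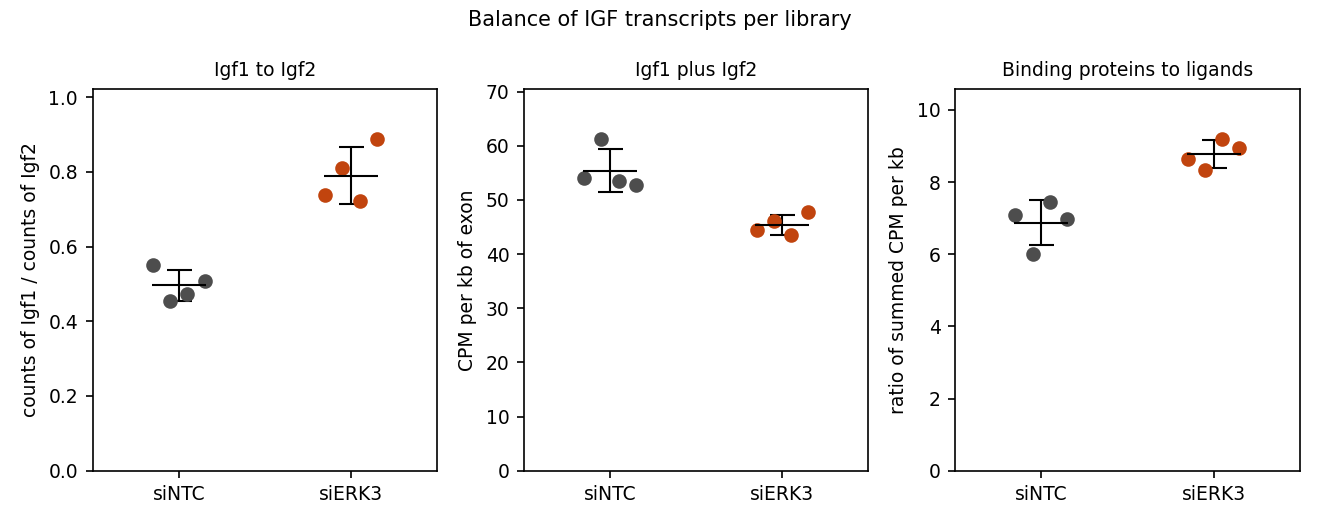
Counts of Igf1 divided by counts of Igf2 (left), summed CPM per kb of exon of Igf1 and Igf2 (middle), and summed CPM per kb of Igfbp4, Igfbp5 and Igfbp7 divided by that of the ligands (right), in 4 siNTC and 4 siERK3 libraries, with long lines at the mean and bars of 1 SD. The siERK3 points lie above the siNTC points on the left (0.723 to 0.889 and 0.455 to 0.549) and on the right (8.34 to 9.20 and 6.01 to 7.45), and below them in the middle.

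Around the members, the signaling receptor of the IGFs was not called and the insulin receptor fell. Igf1r, the main signaling receptor, was at 19.6 ± 2.26 and 18.6 ± 0.94 CPM (SD, n = 4 each) and was not called (log2 fold change -0.08, edgeR adjusted p = 0.501). Insr, the insulin receptor, fell slightly, by 0.24 in log2 terms, from 246 ± 6.09 to 209 ± 9.10 CPM (SD, n = 4 each, edgeR adjusted p = 0.000433). Igfals, which encodes the acid-labile subunit of circulating IGF complexes, rose by 0.50, and of the RNA-binding proteins named for Igf2 mRNA, Igf2bp2 rose by 0.82 from 73.4 ± 5.53 to 129 ± 4.54 CPM (SD, n = 4 each). Igf2bp3 was called at 0.18 (edgeR adjusted p = 0.034), but 18.7% of its exonic bases overlap Malsu1 on the other strand and the call was lost with DESeq2 (adjusted p = 0.0738), with upper-quartile factors (0.189) and without siNTC replicate 1 (0.0503) or 2 (0.0992) or siERK3 replicate 2 (0.133) or 4 (0.103). Igf2bp1 was not called. Within this list of 11 further family genes, 3 of 6 tested were higher and 1 was lower (24.9% and 23.8% of all genes), with a median log2 fold change of 0.14 (0.00095 for all genes). Ins1, Ins2, Insrr, Igfbp1 and Igfbpl1 had no row.

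Downstream of the receptors, Irs1 and Irs2 fell, while the docking protein Gab1 was not called (log2 fold change -0.10). Irs1, the main substrate of the insulin and IGF1 receptors in adipocytes, fell from 252 ± 7.22 to 167 ± 7.86 CPM (SD, n = 4 each), with a log2 fold change of -0.59 (edgeR adjusted p = 1.37e-09), although 30.9% of its exonic bases overlap Gm9747 on the other strand. Irs2 and Pik3r1, a regulatory subunit of PI3 kinase, fell too, with log2 fold changes of -0.53 and -0.45. In the other direction Grb14, an adaptor that inhibits the insulin receptor, rose from 8.99 ± 1.28 to 11.5 ± 0.74 CPM (SD, n = 4 each), by 0.35 (edgeR adjusted p = 0.0134), a call that was lost when siNTC replicate 2 was omitted (adjusted p = 0.055). Akt1 was called at 0.17, a call that upper-quartile factors did not keep (0.10, adjusted p = 0.121). Over the list of IGF1 receptor signaling, 3 of 18 tested genes were higher (24.9% of all genes), 6 were lower (23.8% of all genes) and 9 were not called, with a median of -0.07. Under library sizes only the counts turned to 7 higher and 4 lower, and under upper-quartile factors they were 1 and 8. Without siNTC replicate 2, 1 was higher and 6 were lower.

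Among secreted relatives and proteases of the IGFBPs, fold changes reached farther from 0 than those of the IGFBPs themselves. The CCN proteins are matrix proteins with an IGFBP-like domain, and Cyr61 (Ccn1) rose from 4.92 ± 0.70 to 25.99 ± 2.42 CPM (SD, n = 4 each), that is 2.40 ± 0.11 (standard error) on the log2 scale (edgeR adjusted p = 1.54e-14). Wisp2 (Ccn5) rose by 1.18 and Htra3, a secreted serine protease with an IGFBP-like domain, by 0.84. Of the 7 tested genes of this list 5 were higher (24.9% of all genes), 1 (Kazald1) was lower (23.8% of all genes) and Crim1 was not called, and the median was 0.84. The 5 include Htra1, which met the filter through its siERK3 libraries, with means of 0.287 CPM in siNTC and 1.37 CPM in siERK3. With at least 5 CPM required in at least 4 libraries, 4 of 6 tested genes were higher and 1 was lower. Crim1 was called lower with upper-quartile factors (-0.17, edgeR adjusted p = 0.0397). Of 10 tested proteases that can cut IGFBPs or their inhibitors and relatives, 4 were higher and 2 were lower, next to 24.9% and 23.8% of all genes, with a median of 0.12. Mmp2, a gelatinase, fell from 59.4 ± 4.05 to 20.1 ± 0.62 CPM (SD, n = 4 each), that is -1.56 on the log2 scale (edgeR adjusted p = 3.20e-15). C1ra, a complement protease, rose by 1.66 and Adamts1 by 0.27. The other gene called lower was C1s1, from a mean of 7.69 to 4.60 CPM (log2 fold change -0.74, edgeR adjusted p = 0.000155). Of its exonic bases 18.4% overlap Gm16567 on the other strand. Timp1, an inhibitor counted among the higher genes, rose by 1.72 from a low mean of 1.20 to 3.99 CPM. Reads of C1ra may be shared with its near-identical copy C1rb. Pappa, the protease best known for cutting Igfbp4, rose from 7.32 ± 0.67 to 9.74 ± 0.91 CPM (SD, n = 4 each), by 0.41 (edgeR adjusted p = 0.00593), next to an Igfbp4 level that was not called.

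The genes that act with IGF2R in mannose 6-phosphate sorting were called higher or not at all with TMM factors. Of 11 tested, 5 were higher (24.9% of all genes) and 0 lower (23.8% of all genes) by edgeR and by DESeq2, with a median log2 fold change of 0.16. With upper-quartile factors 4 were higher and 2, Gga3 and Plin3, were lower (-0.19 and -0.17, edgeR adjusted p = 0.0374 and 0.0121). M6pr, the smaller mannose 6-phosphate receptor, rose from 121 ± 4.60 to 165 ± 4.50 CPM (SD, n = 4 each), by 0.44 (edgeR adjusted p = 1.31e-07). The retromer subunits, which return these receptors from endosomes, followed, with Vps29 higher by 0.39, Vps26a by 0.29 and Vps35 by 0.22. The fifth was the sorting adaptor Gga2 (0.23).

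Of 8 genes of growth hormone and STAT5 signaling, the pathway that drives Igf1 in liver, 6 were higher (24.9% of all genes) and 2 were lower (23.8% of all genes), with a median log2 fold change of 0.41. Cish, a feedback inhibitor, was near the threshold (0.14, edgeR adjusted p = 0.0405) and was not called by DESeq2 (adjusted p = 0.0759) or with upper-quartile factors (0.07, adjusted p = 0.312). Jak2, the kinase of the growth hormone receptor, rose from 53.6 ± 6.68 to 107 ± 2.84 CPM (SD, n = 4 each), by 1.00 (edgeR adjusted p = 2.36e-11). Socs2, a feedback inhibitor of that receptor, rose by 0.55. Its relatives Socs1 and Socs3 rose by 2.76 and 0.78, from siNTC means of 1.69 and 6.23 CPM. The higher genes thus include feedback inhibitors of the pathway, and activity of the pathway was not measured. The STAT5 genes split, with log2 fold changes of 0.27 for Stat5b and -0.55 for Stat5a (edgeR adjusted p = 0.000343 and 4.95e-09). Ghr, the receptor itself, was lower by a small amount (log2 fold change -0.16, edgeR adjusted p = 0.0162). With library sizes only, or when siNTC replicate 1, siNTC replicate 4 or siERK3 replicate 3 was omitted, Ghr no longer passed (adjusted p = 0.249, 0.071, 0.0627 and 0.0579).

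Igf2 and Igf2r are imprinted, and other imprinted genes went in both directions. Of 23 listed 13 were tested, 5 were higher and 5 were lower, next to 24.9% and 23.8% of all genes, with a median log2 fold change of -0.17. Dlk1, an inhibitor of adipocyte differentiation that also stands among the preadipocyte markers, fell from 51.1 ± 3.12 to 7.71 ± 0.73 CPM (SD, n = 4 each), that is -2.73 on the log2 scale (edgeR adjusted p = 3.56e-18). Kcnq1ot1, the noncoding RNA of another imprinted domain on chromosome 7, and Peg3 fell, with log2 fold changes of -0.52 and -0.39. Ndn rose by 0.62, Mest by 0.42 and Gnas by 0.30. Of the exonic bases of Mest 23.1% overlap Copg2, and of those of Gnas 13.1% overlap Gm20721. H19, the noncoding partner of Igf2, and Meg3 had no row.

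**Figure D4:**
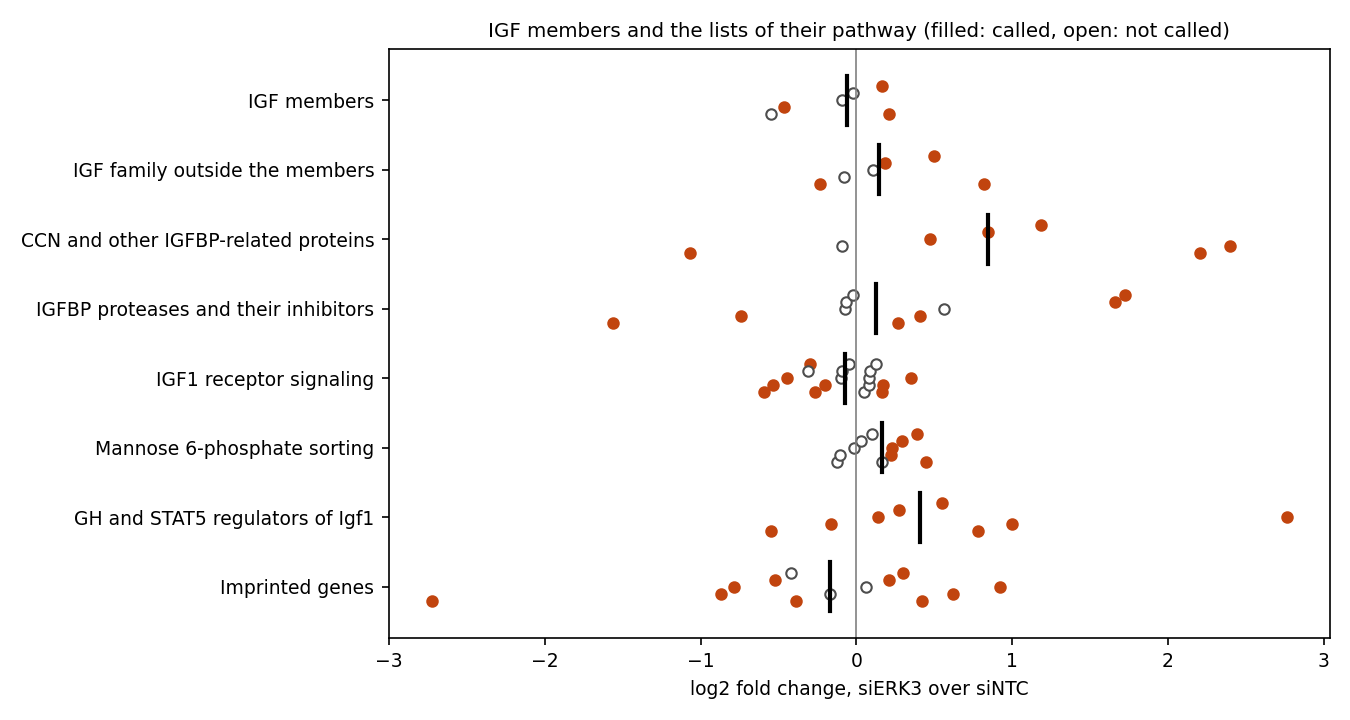
Log2 fold change of siERK3 over siNTC (horizontal axis) of each tested gene of the IGF members and of 7 lists around them, where filling marks genes called by edgeR and black lines mark medians, with points spread vertically for legibility. The 6 IGF members span -0.55 to 0.21, with the sparsely counted Igfbp5 at the lower end. The CCN list (-1.07 to 2.40) and the imprinted genes (-2.73 to 0.92) span more, and the mannose 6-phosphate list (-0.12 to 0.44) spans less.

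The pattern over the 8 libraries that lay closest to that of Igf1, the member with the highest fold change, was that of Tanc2, followed by Abhd13. Likeness was measured as the Euclidean distance between 8 values of log2 CPM, each minus the gene's siNTC mean, among genes averaging 10 CPM or more. The distances were 0.117 and 0.13, and both genes were called higher (log2 fold changes of 0.19 and 0.24). Since the siERK3 values enter the distance, close genes have similar fold changes by the way they were picked. For Igfbp5, with the lowest fold change, the closest were mt-Ti and Gm6444, at the larger distances of 0.43 and 0.534. For Igf2, which was added after its values were seen, the closest was the overlapping model Gm49394 at 0.0069, and the next was Sirt4 at 0.126 with a log2 fold change of -0.47.

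The genes next to Igf1 in the count table, Stab2 and Tyms-ps, were not called (log2 fold changes of -0.07 and 0.31, at 1.49 and 1.80 CPM in siNTC). Beside Igfbp5, Tns1 (1035347 bases to the right) and Rpl37a (144119 bases to the left) were both called lower, with log2 fold changes of -0.36 and -0.33. Next to Igf2, Mrpl23 was not called (log2 fold change -0.17), and the pseudogene Gm7290 was called lower near the limit of measurement, with group means of 1.80 and 1.08 CPM (log2 fold change -0.73, edgeR adjusted p = 0.0467).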

How the data were processed

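RNA sequencing was done by the authors on poly(A) RNA from 8 samples using a kit without strand marking. Their processing notes name bcl2fastq, FastQC, Bowtie2, edgeR and the build mm10. The counting program, annotation and strand setting are not given in the sources used here. The authors deposited raw counts per gene, in which all 18088 rows exceeded 1 CPM in at least 4 libraries. A second deposited table holds the authors' own comparison (log2 fold change, mean log2 CPM, p-value, adjusted p-value) and was not used.

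Samples were grouped by their titles. The counts were analysed with R 4.3.3 and edgeR 4.0.16: filterByExpr (minimum count 10, minimum total 15), TMM factors and the quasi-likelihood test across all 17972 genes kept, without covariates. Intervals are 95% intervals of that fit. Exact permutation tests were two-sided (scipy 1.17.1, Python 3.11.15). The fits were tested on simulated counts with 50 genes changed at each size, far fewer than were called in the data. There edgeR recovered 44% of changes of 1.25-fold, 68% of 1.5-fold, 96% of 2-fold and 98% of 4-fold. Changes as small as those of Igf1 and Igfbp7 were not simulated. Alternatives were DESeq2 1.42.0, limma-voom (limma 3.58.1), RLE or upper-quartile factors, library sizes only, no filter, at least 5 CPM in at least 4 libraries, the replicate number as a block, and each library left out. Replicates of a group differed by more than sampling noise in every pair (chi-square per gene 1.97 to 8.34). Counting-error figures do not cover amplification, which could not be removed because the reads carried no molecular identifiers.

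Positions and exonic lengths were taken from GENCODE M21 (also mm10), which held 18050 of the 18088 gene IDs. The members, lists, rules and motifs were chosen with earlier results of these data known. The rule named all members, Mapk6, overlapping and neighbouring genes, Igf1r, Insr and H19, up to 3 called genes per list and direction with mean CPM of 10 or more, and the 2 genes most like the highest and the lowest member. Some listed genes are not reported here and were left out of the list counts. Other genes named were chosen after their values were seen.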

Additional observations from a re-analysis of the deposited data

Results flagged for a closer look

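In groups of 4 libraries, a value was singled out when 1 library lay far from the other 3 (Dixon's criterion at the 95% level). Over 88 groups of values (the members, Mapk6, Igf1os, the listed genes taken by the naming rule and 3 ratios or shares of the members) 4 were singled out, where chance gives about 1 in 20, or 4.4.

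Igf2 was at 277.8 CPM in siNTC replicate 2 and at 233.1 to 240.2 CPM in the other controls, and the fall of Igf2 held without that library. Replicate 3 of siNTC stood apart for Dlk1, with 55.73 CPM (48.86 to 49.97 in the others), and for Irs1, with 241.1 CPM (255.0 to 256.0). In siERK3 replicate 2, Htra3 was at 90.12 CPM (81.26 to 82.48 in the others).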

How the results depend on the processing

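The fall of Mapk6 kept its direction and call under all 16 alternatives (log2 fold change -3.13 to -2.97, and -3.09 to -3.01 with 1 library left out), as did that of Igf2 (-0.54 to -0.38). The number of members called higher, 2, became 0 with upper-quartile factors and lay between 0 and 2 with 1 library left out. The number called lower, 1, became 3 with upper-quartile factors and lay between 1 and 2 with 1 library left out. The median log2 fold change over all genes was -0.07 with upper-quartile factors, 0.09 with library sizes only and 0.00095 with TMM factors. Which scaling is nearest to the true level was not tested. With library sizes only, Igfbp4 turned to 0.061 and Igf1r to 0.0088, both uncalled before and after. Igfbp5 had no value under the filter of 5 CPM, which it did not reach. Over the 40 genes tracked, 604 of 638 values kept their direction and side of the threshold, 26 lost a call, 6 gained one and 2 changed sign, and the causes were not tested. Libraries with the same replicate number did not deviate together (correlations of -0.016 to 0.055), and only replicate 3 correlated best with its own number. The replicate block left 2 members called higher and 1 lower, and Mapk6 at -3.06. Depth limits Igfbp5, with 13 to 28 counts per library.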
